A study of Mus musculus with 15 samples.

Results

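The transcription factor genes followed here were the AP-1 members Fos, Fosb, Fosl2, Jun, Junb, Jund and Atf3 and the early growth response genes Egr1, Egr2 and Egr3. They were taken by symbol, and not by their behaviour, from the gene column of both deposited tables, and made up 10 of 42396 gene entries. All 10 passed the filter on low counts in every comparison.

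AP-1 is a dimer of basic leucine zipper proteins. Fos proteins cannot form stable dimers with themselves and bind DNA with a Jun partner, whereas Jun proteins can also pair among themselves and with ATF proteins such as ATF3. The EGR proteins are zinc finger factors that bind GC-rich sites. Genes of both families are known as immediate early genes, because growth factors, calcium, stretch and stress switch them on within minutes through kinases acting on SRF with its ternary complex partners and on CREB, and because their transcripts are short-lived. In skeletal muscle, contraction is a known inducer of several of them.

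The libraries were from the tibialis anterior, a shin muscle of mainly fast fibres, of adult C57BL/6 mice taken 2 months after AAV6, an adeno-associated virus that transduces muscle, had been given into the hindlimb. The groups were male C-del (4 libraries), male mock (4), female C-del (4) and female mock (3). C-del animals received virus for a form of LSMEM2, a predicted membrane protein of muscle, and mock animals received virus for the fluorescent protein EGFP, so all 4 groups carried vector. The labels do not say what C-del removes, which promoter drove the transgene or whether each library is a separate animal. The p-values therefore speak for the spread between libraries, which may be technical. The animals are otherwise described as C57BL/6 with no further allele.

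Delivery was visible in every library. Lsmem2 had 481 to 2355 CPM (counts scaled to library size, set within each table) in male C-del libraries against 28.5 to 29.8 CPM in male mock libraries, and 1361 to 2705 CPM in female C-del libraries against 30.0 to 32.7 CPM in female mock libraries. Total counts were 15304500 to 17744020 in male C-del, 14297620 to 15454510 in male mock, 10239330 to 12054870 in female C-del and 9285145 to 10790100 in female mock libraries. The 6 skeletal fibre genes of the marker list summed to at least 92985 CPM in every library and the 4 heart genes to at most 21.6 CPM. In 2 female mock libraries leukocyte genes stood high, with macrophage marker sums of 628 CPM in mock 2 and 306 CPM in mock 3, against 97.7 CPM in mock 1 and 59.5 to 127 CPM in female C-del libraries. Lymphocyte markers summed to 542 CPM in mock 2, 27.9 CPM in mock 3 and 3.73 CPM in mock 1, against 1.47 to 4.38 CPM in female C-del libraries. The sexes came as separate tables, and an effect of sex cannot be told apart from one of table.

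RefSeq windows on GRCm38.p6, from 250 bases before to 50 after a start, were found for 8 of the 10 genes (12 windows, 5 of them for Egr2), and 4 are printed as examples of Fos, Jun and EGR family promoters. All read 5′ to 3′ on the gene's strand, capitals mark motif matches, and positions count from 0 at the RefSeq start site of each window. For Fosb and Egr2 that site lies inside the longer gene span given below. The Fos window is chr12:85473640-85473939 (plus strand), the Fosb window chr7:19309996-19310295 (minus), the Jun window chr4:95052173-95052472 (minus) and the Egr2 window chr10:67537619-67537918 (plus).
Fos: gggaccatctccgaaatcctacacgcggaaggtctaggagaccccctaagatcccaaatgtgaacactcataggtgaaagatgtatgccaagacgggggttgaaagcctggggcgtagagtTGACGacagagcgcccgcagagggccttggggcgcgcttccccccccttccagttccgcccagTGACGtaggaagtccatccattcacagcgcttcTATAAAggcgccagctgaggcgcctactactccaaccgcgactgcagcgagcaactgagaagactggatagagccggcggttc
Fosb: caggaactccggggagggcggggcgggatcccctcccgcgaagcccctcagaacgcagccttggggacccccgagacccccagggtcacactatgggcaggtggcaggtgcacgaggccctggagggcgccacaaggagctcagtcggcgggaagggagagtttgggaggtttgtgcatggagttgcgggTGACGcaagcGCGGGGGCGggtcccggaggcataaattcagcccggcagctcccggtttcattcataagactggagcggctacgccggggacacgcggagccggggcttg
Jun: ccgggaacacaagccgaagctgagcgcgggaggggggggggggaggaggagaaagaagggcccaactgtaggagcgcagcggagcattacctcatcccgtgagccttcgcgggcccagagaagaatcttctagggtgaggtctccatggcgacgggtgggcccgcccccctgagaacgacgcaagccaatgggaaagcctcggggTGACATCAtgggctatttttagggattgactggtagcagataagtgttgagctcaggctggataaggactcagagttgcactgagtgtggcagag
Egr2: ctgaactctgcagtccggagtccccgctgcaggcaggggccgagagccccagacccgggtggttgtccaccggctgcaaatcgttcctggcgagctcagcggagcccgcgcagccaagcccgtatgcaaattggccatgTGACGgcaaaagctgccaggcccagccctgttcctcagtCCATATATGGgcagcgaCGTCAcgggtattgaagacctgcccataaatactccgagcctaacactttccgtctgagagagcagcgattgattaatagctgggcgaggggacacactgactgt
The Fos window held the cAMP response element core TGACG at positions -129 and -66 and a TATAAA box at -33. The Fosb window held TGACG at -60 and the EGR site GCGNGGGCG at -50. The Jun window held TGACATCA, the ATF type site known from the Jun promoter, at -45. The Egr2 window held a CArG box, the SRF site, at -72 and TGACG at -111 and, on the opposite strand, at -55. Of 32851 mouse windows of this length, 20.8% held TGACG, 5.55% GCGNGGGCG, 3.62% TGACATCA and 1.63% a CArG box on either strand, and 8.32% held TATAAA on the gene's strand. The full cAMP response element TGACGTCA (1.79% of windows) and the AP-1 site TGANTCA (7.81%) were searched on both strands and matched 0 of the 12 windows. Of the windows not printed, that of Atf3 held TGACG (opposite strand) at -7, that of Junb TGACG at -106 and TATAAA at 0, that of Fosl2 GCGNGGGCG at -79 and further windows of Egr2 a CArG box, while that of Jund matched none of these motifs. Such matches describe letters and not binding, and sites outside these windows, such as those further before a start, were not searched.

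In males, C-del muscle had more Jun, Jund and Fosl2 RNA and less Egr1 and Junb RNA than mock muscle. Of the 10 genes, 3 rose and 2 fell at an adjusted p under 0.05 (edgeR's quasi-likelihood test, Benjamini-Hochberg over all 14543 genes tested). Among all genes tested, 5.8% were called higher and 5.37% lower. For Jun and Jund the C-del libraries all exceeded the mock libraries, an arrangement found for 9.08% of all genes, and for Junb and Egr1 they all lay below, found for 8.47%. The median log2 fold change (C-del over mock) of the 10 genes was 0.36, against -0.0047 over all genes. Jun and Egr1 were the 2 that also passed when the male contrast was taken from a fit of all 15 libraries (380 genes passed in all), and Jun was the 1 that passed with mock 3 and 4 left out (767 in all).

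In females, the fitted fold change was positive for 10 of 10 genes, and the largest were those of Egr3, Fosb, Fos and Egr1. None passed the adjusted threshold with edgeR (0 of 10, where 0.0141% of 14220 genes were called higher), while 7 were higher at an unadjusted p under 0.05, as were 4.81% of all genes. With DESeq2, 5 passed as higher (0.83% of all genes), and the same 5, namely Fos, Fosb, Fosl2, Egr1 and Egr3, passed as higher when the female contrast was taken from a fit of all 15 libraries (1.72% of 15272 genes). The C-del libraries all exceeded the mock libraries for 6 genes, Fos, Fosb, Fosl2, Egr1, Egr2 and Egr3, against 5.71% of all genes. Their median log2 fold change was 1.13, against -0.015 over all genes.

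Averaged over both sexes, Fos, Fosb, Fosl2, Jun and Egr3 rose and 0 of the 10 fell, where 2.42% of all genes were called higher and 1.99% lower. The effect of C-del differed between the sexes for 1 gene, Egr1, which was among the 0.17% of genes called higher for the female minus male difference. These contrasts use the same libraries as the within-sex ones and are not separate evidence.

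**Figure D1:**
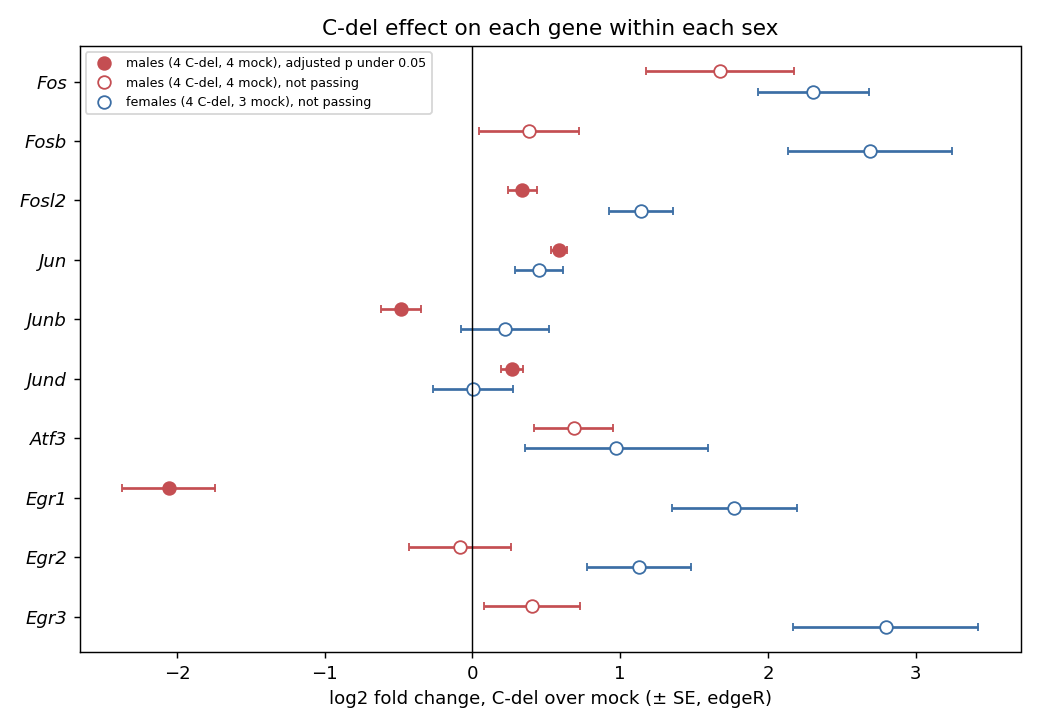
Fitted log2 fold change of each gene, C-del over mock, with its SE, in males (red, 4 and 4 libraries) and females (blue, 4 and 3). Filled points passed an adjusted p under 0.05, and Egr1 lies at -2.06 in males and 1.77 in females.

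Fos, the founding member of its family and the most abundant Fos transcript here, had a higher mean with C-del in both sexes, though male libraries overlapped. Its gene lies at chromosome 12, 85473890 to 85477274, plus strand. In males it had 48.5, 82.9, 38.3 and 17.9 CPM in C-del libraries against 12.5, 14.1, 12.3 and 19.9 CPM in mock libraries. C-del 4 lay within the mock range, so the groups overlapped, and the log2 fold change of 1.68 ± 0.50 (SE) had an adjusted p of 0.0909. Without C-del 4 it passed (1.95, adjusted p = 0.0279), and with DESeq2 too (adjusted p = 0.00573). Female values were 56.8, 32.8, 36.1 and 64.4 CPM in C-del libraries against 4.72, 9.92 and 14.1 CPM in mock libraries. Here the lowest C-del library was above the highest mock library. The log2 fold change was 2.31 ± 0.38 (adjusted p = 0.110), with an adjusted p of 0.00553 without mock 1 and 3.59e-08 with DESeq2. Leaving out mock 1 keeps mock 2 and 3, the mock libraries with high leukocyte genes. In that fit 114 of 14706 genes were called higher and 936 lower. The same limit holds for Fosb, Fosl2 and Junb without mock 1 below. Over both sexes Fos rose by 1.99 ± 0.33 on the log2 scale, or 3.98-fold (adjusted p = 0.00638), and passed in 20 of 20 alternatives. In bulk muscle, more RNA per cell and more cells that express a gene cannot be told apart.

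Fosb, whose full-length and truncated proteins are both known from excitable tissues, was scarce. It lies on the minus strand of chromosome 7 at 19302696 to 19310118. Males had 1.93, 3.12, 1.34 and 0.930 CPM in C-del libraries against 1.81, 1.01, 1.36 and 1.46 CPM in mock libraries, and the groups overlapped (log2 fold change 0.38 ± 0.34, adjusted p = 0.523). Without C-del 2 the male value was -0.019. Female libraries separated, with 5.82, 2.48, 2.03 and 3.83 CPM in C-del against 0.110, 0.702 and 0.770 CPM in mock, the last 3 resting on 1, 8 and 7 reads. The log2 fold change was 2.69 ± 0.55 in females (adjusted p = 0.146, 0.00114 with DESeq2 and 0.0355 without mock 1). On average Fosb rose by 1.54 ± 0.34 (adjusted p = 0.0187). The female minus male difference of 2.31 had an adjusted p of 0.101 with edgeR and 0.0298 with DESeq2.

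Fosl2 encodes FRA-2, a Fos relative without the strong activation domain of Fos. It lies at chromosome 5, 32136472 to 32157840, plus strand. In males it had 17.8, 20.8, 20.3 and 16.9 CPM in C-del libraries against 12.5, 16.2, 16.99 and 14.2 CPM in mock libraries. C-del 4 and mock 3 nearly coincided. The log2 fold change was 0.34 ± 0.099 (adjusted p = 0.0415), and the call was lost without mock 1, mock 4, or C-del 1, 2 or 3 (adjusted p 0.0585 to 0.114). In females it had 34.5, 25.3, 20.03 and 24.0 CPM in C-del libraries against 8.78, 12.8 and 13.6 CPM in mock libraries. The groups did not overlap (log2 fold change 1.14 ± 0.22, adjusted p = 0.120, 0.000330 with DESeq2 and 0.0288 without mock 1). The average rise was 0.74 ± 0.12 (adjusted p = 0.00193), and it passed in 20 of 20 alternatives.

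**Figure D2:**
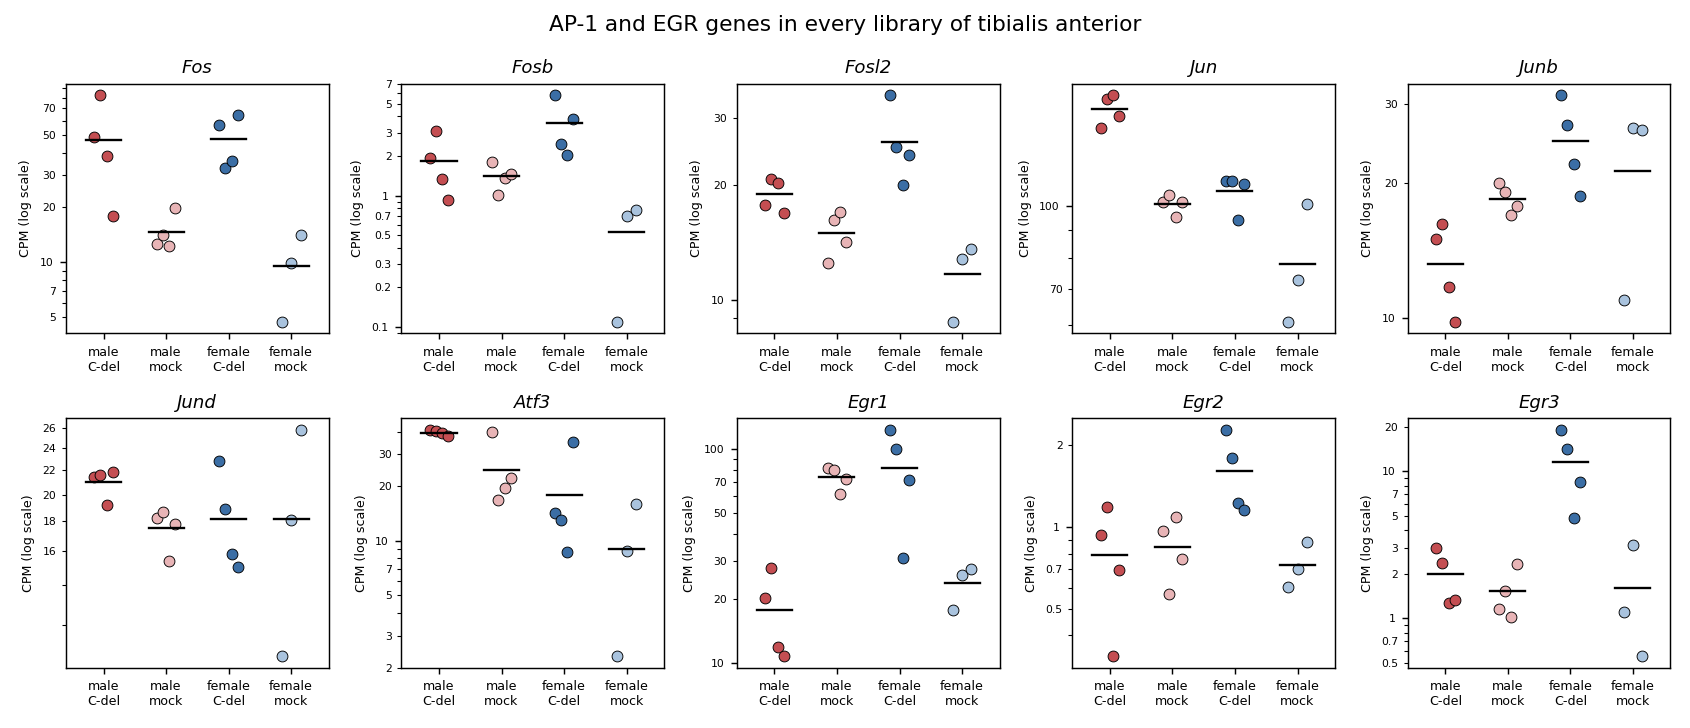
CPM of each gene in every library, on log axes whose ranges differ between panels; each point is 1 library and the bar is the group mean (4 libraries, 3 for female mock). The mean of Fos is higher with C-del in both sexes, with male libraries overlapping, while Egr1 is low with C-del in males (10.8 to 27.8 CPM) and high with C-del in females (30.9 to 122.8 CPM).

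Jun, the main partner of Fos, gave the steadiest change. It lies on the minus strand of chromosome 4 at 95049036 to 95052222. Male libraries had 139.5, 158.3, 161.0 and 147.3 CPM with C-del against 101.5, 104.8, 95.5 and 101.6 CPM with mock. The groups were well apart, the spread within each was small, and Jun rose 1.503-fold (log2 0.59 ± 0.053, adjusted p = 1.15e-05), a call that held in 16 of 16 alternatives. Female libraries had 111.0, 111.5, 93.9 and 109.9 CPM with C-del against 60.8, 72.7 and 100.7 CPM with mock. Mock 3 lay above C-del 3, so the groups overlapped (log2 fold change 0.45 ± 0.16, adjusted p = 0.319). On average Jun rose by 0.52 ± 0.086 (adjusted p = 0.00242), and its female minus male difference was -0.14 ± 0.17.

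Junb, which is known to oppose Jun at some promoters and to support muscle mass in mice, went the other way in males. It lies on the minus strand of chromosome 8 at 84976909 to 84978748. Male C-del libraries had 15.02, 16.3, 11.7 and 9.83 CPM, all below the 20.04, 19.1, 16.99 and 17.8 CPM of mock libraries. Junb fell by 0.49 ± 0.14 on the log2 scale (adjusted p = 0.0422), and the call was lost without any one of mock 1 to 4 or without C-del 1 or 3 (adjusted p 0.0508 to 0.116). Female libraries had 31.5, 26.9, 22.1 and 18.7 CPM with C-del against 10.98, 26.6 and 26.3 CPM with mock. They overlapped, mock 1 being the lowest (log2 fold change 0.22 ± 0.30, adjusted p = 0.796, and -0.090 without mock 1). The female minus male difference of 0.70 ± 0.35 did not pass (adjusted p = 0.319).

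Jund, the Jun member known for steady expression in resting cells, lies at chromosome 8, 70697739 to 70700616, plus strand. Its reads were shared equally between a pair of entries of the same name, so each printed value is 1 entry and the gene's level is their sum. Male libraries had 21.4, 21.6, 19.2 and 21.8 CPM with C-del against 18.2, 18.6, 15.4 and 17.8 CPM with mock. The groups did not overlap and Jund rose 1.20-fold (log2 0.26 ± 0.074, adjusted p = 0.0341), a call lost without mock 1, 3 or 4 or C-del 1, 2 or 4 (adjusted p 0.0563 to 0.101). Female libraries had 22.8, 18.9, 15.8 and 15.1 CPM with C-del against 10.6, 18.1 and 25.8 CPM with mock. The mock libraries held both the lowest and the highest value, and the fitted change was 0.0048 ± 0.27 (adjusted p = 0.994).

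Atf3, a stress-induced ATF protein that pairs with Jun, lies on the minus strand of chromosome 1 at 191170296 to 191183333. Male C-del libraries had 40.9, 40.1, 39.1 and 37.7 CPM and mock libraries 39.6, 16.7, 19.5 and 22.2 CPM. One mock library lay among the C-del libraries and the other 3 lay well below them. With all libraries the log2 fold change was 0.69 ± 0.27 (adjusted p = 0.168), and without mock 1 it was 1.02 (adjusted p = 1.94e-05). Female libraries had 14.3, 12.97, 8.71 and 35.2 CPM with C-del against 2.31, 8.77 and 15.95 CPM with mock. These overlapped, C-del 4 being far the highest (log2 fold change 0.97 ± 0.62, adjusted p = 0.571).

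Egr1, the best known EGR factor, is induced by growth factors and by load in muscle and tendon. It lies at chromosome 18, 34861207 to 34864956, plus strand. Its C-del libraries were low in males and high in females. Male libraries had 20.2, 27.8, 11.9 and 10.8 CPM with C-del against 81.5, 80.1, 61.4 and 72.4 CPM with mock. The highest C-del library was under the lowest mock library by a wide margin. Egr1 fell 4.16-fold (log2 fold change -2.06 ± 0.31, adjusted p = 0.0103). The call held without each library in turn. It was lost when mock 3 and 4 were both left out (adjusted p = 0.0665) and when neighbouring columns were summed to 2 per group (adjusted p = 0.265). Female libraries had 122.8, 99.6, 30.9 and 71.9 CPM with C-del against 17.8, 25.9 and 27.6 CPM with mock. C-del 3 lay just above the mock range and the other 3 far above it (log2 fold change 1.77 ± 0.42, adjusted p = 0.167, and 0.0195 with DESeq2).

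The effect of C-del on Egr1 was 3.82 ± 0.58 higher in females than in males on the log2 scale (adjusted p = 0.0225). Female C-del and male mock were the groups with high Egr1, at 81.3 ± 39.6 CPM (SD, n = 4) and 73.8 ± 9.20 CPM (SD, n = 4). Male C-del and female mock were low, at 17.7 ± 7.95 CPM (SD, n = 4) and 23.8 ± 5.25 CPM (SD, n = 3). These levels were set in separate tables, so only the within-table changes were tested. The difference was lost without male mock 4, male C-del 3, female mock 3 or female C-del 2 (adjusted p 0.0501 to 0.0583), with log2 values of 3.56 to 4.13 over all libraries left out in turn. Averaged over both sexes the change was -0.14 ± 0.28 (adjusted p = 0.828).

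Egr2, a regulator of myelination in nerve, was near the lower end of detection. It lies at chromosome 10, 67534469 to 67542188, plus strand, and its reads were also shared by a pair of entries. Male libraries had 0.935, 1.19, 0.335 and 0.698 CPM with C-del against 0.970, 0.570, 1.09 and 0.764 CPM with mock, for 1 entry. These overlapped (log2 fold change -0.085 ± 0.35, adjusted p = 0.911). Female libraries had 2.28, 1.79, 1.23 and 1.16 CPM with C-del against 0.604, 0.702 and 0.880 CPM with mock. The groups did not overlap, and the log2 fold change of 1.13 ± 0.35 did not pass (adjusted p = 0.240). A library held 5 to 25.5 reads of this entry.

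Egr3, which is needed for muscle spindle development in mice, had the largest fitted change in females. It lies at chromosome 14, 70077317 to 70082613, plus strand. Male libraries had 3.03, 2.38, 1.27 and 1.34 CPM with C-del against 1.16, 1.54, 1.02 and 2.36 CPM with mock, and the groups overlapped (log2 fold change 0.40 ± 0.33, adjusted p = 0.483). Female libraries had 19.2, 14.2, 4.82 and 8.46 CPM with C-del against 1.10, 3.16 and 0.550 CPM with mock. The lowest C-del library was above the highest mock library. The log2 fold change was 2.80 ± 0.62 in females (adjusted p = 0.156, and 0.000114 with DESeq2). On average Egr3 rose by 1.60 ± 0.39 (adjusted p = 0.0330), a call lost without male mock 1, 2 or 3, male C-del 1 or 2, female mock 3 or female C-del 2 (adjusted p 0.0577 to 0.0703) or with no filter on low counts (adjusted p = 0.0782). The female minus male difference of 2.39 ± 0.78 did not pass with edgeR (adjusted p = 0.137) and did with DESeq2 (adjusted p = 0.0216).

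Levels were compared between genes as CPM per kb of exon, with both entries of Jund and Egr2 added. Jun was first and Jund second in every group. In males Jun reached 47.5 ± 3.12 CPM per kb with C-del and 31.6 ± 1.22 with mock (SD, n = 4 each), and Jund 25.2 ± 1.46 with C-del and 21.0 ± 1.75 with mock. Fos stood at rank 3 in both C-del groups, at 19.9 ± 11.5 CPM per kb in males and 20.2 ± 6.57 in females (SD, n = 4 each), and at rank 6 in both mock groups, at 6.25 ± 1.52 in males (SD, n = 4) and 4.07 ± 1.99 in females (SD, n = 3). The ranges of Fos overlapped those of its neighbours Jund and Atf3 in male C-del libraries. Egr1 was at rank 6 in male C-del and rank 3 in male mock libraries. Fosb was last in all groups, at 0.0845 to 0.567 CPM per kb on average, and Fosl2, Egr2 and Egr3 held the places between Fosb and the 6 abundant genes.

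The make-up of each family was summed per library. The ratio of summed Fos family to summed Jun family transcript (both in CPM per kb) was 0.280 ± 0.140 with C-del and 0.133 ± 0.0242 with mock in males (SD, n = 4 each), where the libraries overlapped. In females it was 0.358 ± 0.111 with C-del (SD, n = 4) and 0.0943 ± 0.0122 with mock (SD, n = 3), with no overlap of the libraries. Jun made up 60.5% ± 2.74 of the Jun family with C-del and 52.2% ± 1.13 with mock in males, and Junb 7.30% ± 1.52 with C-del and 13.2% ± 0.520 with mock (SD, n = 4 each). The summed EGR level was 4.86 ± 2.11 CPM per kb with C-del and 17.3 ± 1.99 with mock in males (SD, n = 4 each), and 21.7 ± 10.5 with C-del (SD, n = 4) and 6.09 ± 1.32 with mock (SD, n = 3) in females. These ratios and sums are described with no test.

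**Figure D3:**
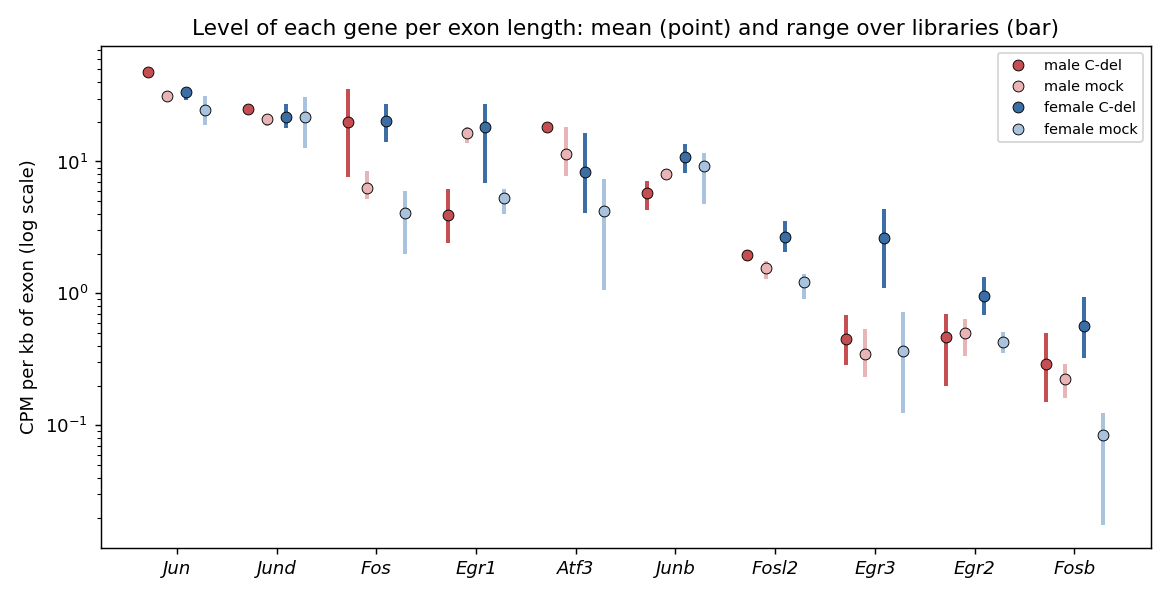
Level of each gene in CPM per kb of exon (log axis), with the group mean as a point and the lowest to highest library as a bar. Jun and Jund lead in all 4 groups, while the order of Fos and Egr1 differs between groups.

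Within groups, some of the genes also varied together from library to library. Over the 15 libraries, deviations of log2(CPM + 1) from the group mean had a Pearson correlation of 0.84 between Junb and Jund, 0.81 between Jun and Jund, 0.81 between Fos and Fosb, 0.79 between Fosb and Egr1 and 0.73 between Egr1 and Egr3. Atf3 and Egr3 did not vary together (-0.0049). Of 12804 genes with a mean of at least 1 CPM in each table, those most like Fos were Itga5 (0.86), Tdp1 (0.85) and Adam8 (0.84). Those most like Jun were Mdp1 (0.94), Hnrnpab (0.94) and 2900089D17Rik (0.93). Those most like Egr1 were Apold1 (0.88), Rps6ka4 (0.88) and Bcl6b (0.88). All these values share the libraries and their depth, and are given as descriptions.

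Genes that surround AP-1 and EGR in textbook pathways were counted from lists chosen with earlier results of these data known. In males, 18 of 35 other immediate early genes rose and 5 fell, beside 5.8% of all genes called higher and 5.37% lower. Klf4, a zinc finger factor, had 35.9 ± 2.73 CPM with C-del and 14.6 ± 0.266 CPM with mock, and the nuclear receptor Nr4a1 had 403 ± 17.9 CPM with C-del and 219 ± 9.55 CPM with mock (SD, n = 4 each). The 5 that fell, named after their values were seen, were Ier2, Ier3, Plk2 and the mRNA decay factors Zfp36 and Zfp36l1, with Ier2 at -1.04 ± 0.14 and Zfp36l1 at -0.65 ± 0.062 on the log2 scale. In females 0 of 35 passed with edgeR. By an unadjusted p under 0.05, 15 were higher, as were 4.81% of all genes, and 1 was lower. On average 16 rose and 2 fell, where 2.42% of all genes were called higher and 1.99% lower. Apold1, an endothelial early gene, also differed between the sexes (female minus male 2.33 ± 0.38, adjusted p = 0.0215). Unlike Egr1 it rose in males too (0.55 ± 0.10, adjusted p = 0.00347), and its female levels were 16.1 to 41.3 CPM with C-del against 2.63 to 5.40 CPM with mock. The other gene of this list to differ was Cebpd, whose difference was negative (-1.23 ± 0.24, adjusted p = 0.0450).

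Regulators upstream of the early genes were mixed. Of 15 SRF, ternary complex, CREB and MEF2 factors and cofactors, 2 rose and 2 fell in males, beside the 5.8% of all genes called higher and 5.37% lower. Mrtfa, an actin-controlled SRF cofactor, rose by 0.54 ± 0.073 (adjusted p = 0.000294) and Srf by 0.17 ± 0.045 (adjusted p = 0.0266), while the related cofactor Mrtfb fell by 0.46 ± 0.086 (adjusted p = 0.00541) and Mef2a fell too. Mrtfb also had a female minus male difference that passed (0.96 ± 0.19, adjusted p = 0.0450). Of 20 kinases of the ERK, JNK and p38 cascades, 1 rose (Map2k3) and 1 fell (Rps6ka5) in males, and 1 rose (Map2k3) on average. Of 14 MAP kinase phosphatases and feedback inhibitors 2 rose (Errfi1 and Dusp5) and 1 fell (Spry1) in males. On average 3 of 15 rose, namely Errfi1 (1.03 ± 0.10), an inhibitor of the EGF receptor, Spry4 (0.65 ± 0.10) and the phosphatase Dusp1 (0.49 ± 0.11). In females 0 genes of these 3 lists passed with edgeR, while an unadjusted p under 0.05 marked 7 as higher and 3 as lower.

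The partners and targets of the 2 families were mixed. Among the other AP-1 family and partner genes tested in males, Maff rose by 0.86 ± 0.12 and Atf7 fell by 0.28 ± 0.059 on the log2 scale. Of the EGR relatives, 2 of 3 could be tested, and Nab2, an EGR co-repressor and itself an EGR target, rose in males by 0.56 ± 0.14 (adjusted p = 0.0191) where Egr1 fell. Of 12 textbook AP-1 targets tested in males 0 passed, with 2 higher and 0 lower by an unadjusted p under 0.05. Of 14 textbook EGR targets 3 rose in males, Vegfa, Pdgfb and the Nab2 already counted above, and 1 fell, Pdgfa. Among all genes tested in males, 5.8% were called higher and 5.37% lower. The 8 inducible heat shock genes, a different stress readout, all passed as higher in males and 7 did on average. In females 0 of the 8 passed with edgeR, with 3 higher at an unadjusted p under 0.05. Their median log2 fold change was 0.99 in males and 0.23 in females. For the female minus male difference 1 passed as lower, and 6 were lower at an unadjusted p under 0.05. Dnajb1 had 23.1 ± 5.25 CPM with C-del and 7.19 ± 0.363 CPM with mock in males (SD, n = 4 each).

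**Figure D4:**
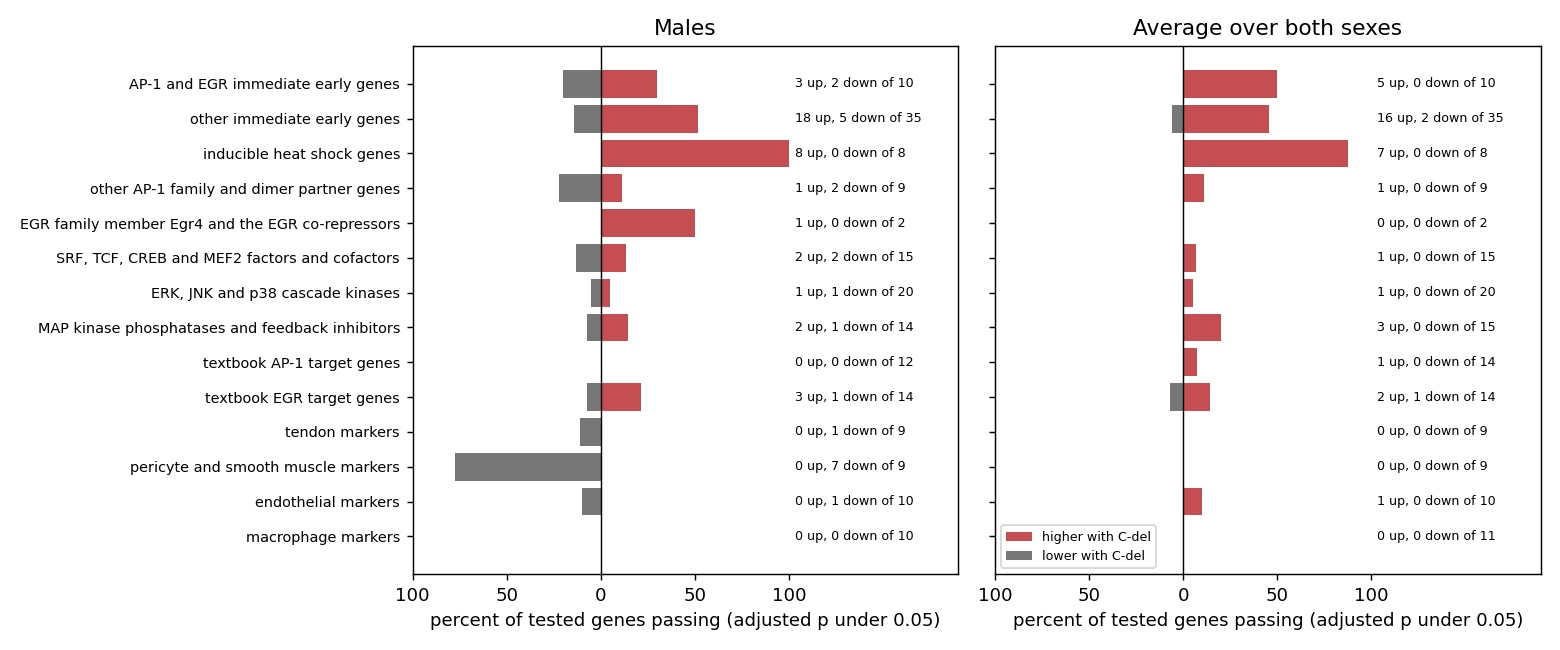
Share of each list's tested genes that passed at an adjusted p under 0.05 as higher (red) or lower (grey) with C-del, in males and on average over both sexes, with the counts at the right. The heat shock list (8 of 8 higher in males) and the other immediate early genes (18 higher and 5 lower of 35) stand beside the 10 AP-1 and EGR genes (3 higher and 2 lower).

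Markers of the other cells of muscle were summed per library. Among all genes tested in males, 5.8% were called higher and 5.37% lower. Pericyte and smooth muscle markers summed to 1169 to 1197 CPM with C-del against 1336 to 1401 CPM with mock in males, where 7 of 9 fell, and to 1063 to 1175 CPM with C-del against 889 to 1027 CPM with mock in females, where 0 passed (3 higher at an unadjusted p under 0.05). The groups did not overlap in either sex, and the direction of the group difference was that of Egr1. Library by library the sum did not follow Egr1 among female C-del libraries. Egr1 was highest in C-del 1 (122.8 CPM, sum 1071 CPM) and the sum in C-del 4 (1175 CPM, Egr1 71.9 CPM). Rgs5 and Abcc9 were its largest parts, with means of 586 and 278 CPM in female C-del. Kcnj8 had a lower mean with C-del in females (27.7 against 28.4 CPM). A link to Egr1 was not tested. Tendon markers summed to 196 to 338 CPM with C-del against 321 to 508 CPM with mock in males, where 1 of 9 fell (Tnmd) and 7 were lower at an unadjusted p under 0.05. In females they summed to 197 to 408 CPM with C-del against 169 to 311 CPM with mock. Endothelial markers summed to 627 to 672 CPM with C-del against 619 to 641 CPM with mock in males, and to 543 to 578 CPM with C-del against 450 to 469 CPM with mock in females. Fibroblast markers summed to 647 to 805 CPM with C-del against 687 to 1491 CPM with mock in males and to 558 to 1103 CPM with C-del against 591 to 731 CPM with mock in females. The Schwann cell, spindle and satellite cell lists had 0, 0 and 1 genes passing in males.

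Among female libraries, macrophage marker sums were high in mock 2 and 3, while mock 1 (97.7 CPM) lay within the C-del range (59.5 to 127 CPM). By edgeR, 9 of the 10 macrophage markers tested were lower with C-del at an unadjusted p under 0.05, and 0 passed after adjustment. The share of all genes lower at that cut-off was not counted. With female mock 2 and 3 left out, 1 mock library remains without a spread of its own, so no call was drawn. All female C-del libraries lay above mock 1 for each of the 10 AP-1 and EGR genes. Fos, for example, had 4.72 CPM in mock 1 against 32.8 to 64.4 CPM in female C-del libraries. This comparison with 1 library was not tested. In males, macrophage markers summed to 203 and 225 CPM in C-del 1 and 2 against 66.7 and 85.6 CPM in C-del 3 and 4 and 81.3 to 97.7 CPM in mock libraries. Without C-del 1 and 2, an alternative chosen after seeing the data, 3 of the 10 genes passed in males, where 644 of 14875 genes were called higher and 482 lower, and Fosb and Egr3 had fitted changes of -0.33 and -0.21. None of the markers in these lists was at 0 in all libraries. The part of other cell types in the results was not tested.

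**Figure D5:**
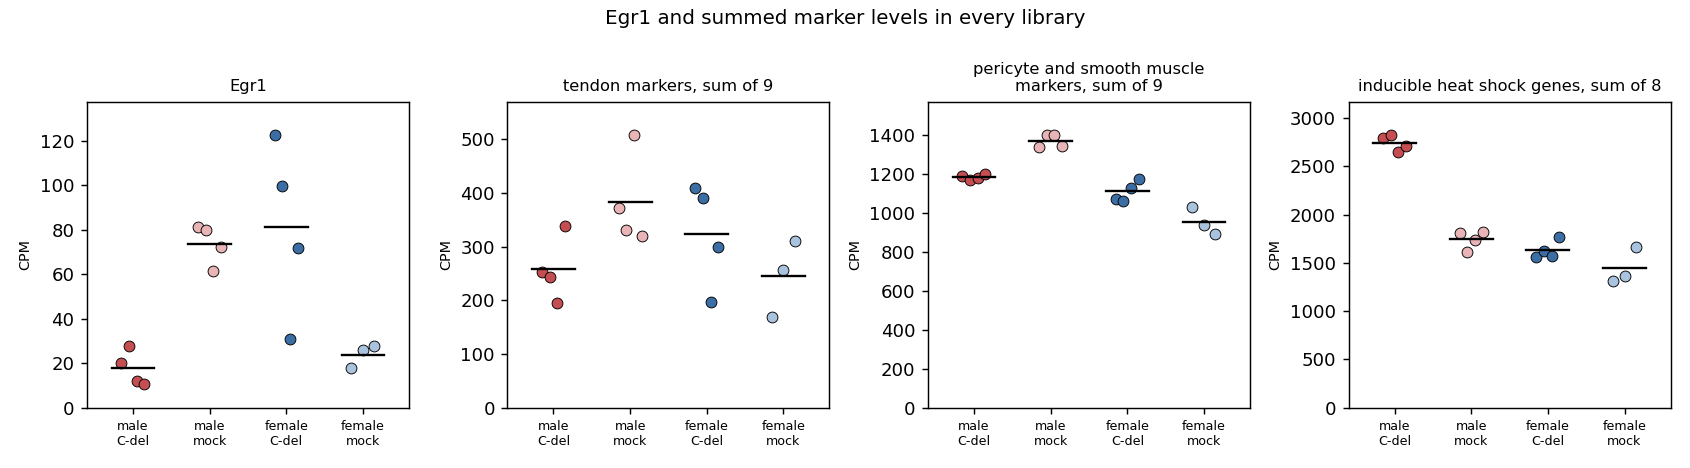
Egr1, the summed tendon markers, the summed pericyte and smooth muscle markers and the summed inducible heat shock genes in every library (CPM, linear axes from 0); points are libraries and bars are group means. The first 3 are lower with C-del in males and higher with C-del in females on the group mean, and the heat shock sum is far higher with C-del in males (2649 to 2829 CPM against 1616 to 1819 CPM with mock).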

How the data were processed

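The deposited values are expected counts per gene, one table per sex, made by the authors with featureCounts 2.0.0 on GRCm38.p6, per the submitters' processing notes. They carry no normalisation. No source used here names the aligner or says how strand was counted, so overlapping genes are less sure. The extraction text speaks of hearts where the labels name skeletal muscle. Since the planned test was for whole counts, the estimates were rounded first. All columns were mapped to groups, the male ones by group only, and a male library's number is that of its column. Of the entries, 2379 were further copies of 1766 genes, 1144 of them equal to the first, and tests used the first.

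In R 4.3.3 with edgeR 4.0.16, genes were kept by filterByExpr at a minimum count of 10. TMM factors set the library sizes for the robust quasi-likelihood test. The threshold was a Benjamini-Hochberg adjusted p of 0.05. SE is the log2 fold change over the root of F. Each sex was fitted alone, and the average and the difference came from a fit of 15 libraries. Alternatives were DESeq2 1.42.0, RLE factors, no filter, a joint fit, a replicate block, left-out or summed libraries and, chosen after seeing the data, adding second entries and leaving out male C-del 1 and 2. Same-group libraries differed by more than sampling noise (chi-square per gene 2.48 to 40.3). In males, C-del 1 and 2 (4.53) and C-del 3 and 4 (4.26) were more alike than the other C-del pairs (11.2 to 13.6). Mock 3 and 4 were the closest mock pair (2.48), while mock 1 and 2 (5.61) lay within the other mock pairs (4.31 to 8.78). Whether neighbouring male columns are independent was not tested, and summing them is the alternative that treats each such pair as 1 library. The tests were checked on simulated data. Plots used Python 3.11.15 and matplotlib 3.10.9.

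The members, the lists, the left-out libraries and the naming rule were chosen with earlier results of these data known. The rule names all 10 genes and Lsmem2, up to 4 passing genes of each list by smallest p, or those with the largest fitted change where none passed, and the 3 genes most like Fos, Jun and Egr1. The 5 other immediate early genes that fell in males were named after their values were seen. A few genes of the lists are not reported here.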

Additional observations from a re-analysis of the deposited data

Results flagged for a closer look

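The Egr1 response to C-del was higher in females than in males by 3.82 ± 0.58 on the log2 scale (adjusted p = 0.0225, edgeR interaction contrast). Its direction was positive in every one of the libraries left out in turn, and each sex has its own table.

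Of 30 groups of 4 libraries, 2 held a library far from the other 3, where chance gives about 1 in 20. Jun in female C-del 3 was the lowest of its group at 93.9 CPM. Jund in male C-del 3 was the lowest of its group at 19.2 CPM.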

How the results depend on the processing

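Over 40 results (10 genes in 4 comparisons) and 700 alternative values, 619 kept direction and side of the threshold, 45 kept direction and no longer passed, 19 newly passed and 17 changed sign, none of them a call. The number of the 10 genes passing in males was 5, and 2 in the joint fit, 1 with mock 3 and 4 left out, 1 with neighbouring columns summed, 3 with C-del 1 and 2 left out and 2 to 5 without single libraries. All genes passing in males numbered 1624, and 380 in the joint fit, 767 with mock 3 and 4 left out, 272 with columns summed, 1126 with C-del 1 and 2 left out and 1100 to 1526 without single libraries. In females 0 of the 10 and 2 genes in all passed. These counts were 5 and 376 with DESeq2, 5 and 777 in the joint fit and 0 and 16 with no filter. With second entries added they were 0 and 6. Without single libraries they were 0 to 3 and 1 to 1050. The highest were without mock 1, which keeps the mock libraries with high leukocyte genes. On average 673 genes passed, 1096 with DESeq2 and 368 to 2085 without single libraries (4 to 5 of the 10). For the difference 1 of the 10 and 54 genes passed, 4 and 656 with DESeq2, and 0 to 1 and 10 to 1817 without single libraries.

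The female numbers showed no sign of pairing: deviations of same-numbered mock and C-del libraries correlated at -0.14, -0.011 and -0.042. Differently numbered ones correlated at -0.21 to 0.23. With so few libraries these values cannot exclude a pairing. A replicate block gave 0 of the 10 and 97 genes for the difference, where Egr1 had 3.71 (adjusted p = 0.0516) and Atf3 -0.17, and moved the other counts by less than 1.5 times.

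No sign change touched a result that had passed. Egr2 in males ranged from -0.37 to 0.15 without single libraries and was 0.066 with mock 3 and 4 left out. Fosb in males ranged from -0.019 to 0.61 without single libraries and was -0.33 with C-del 1 and 2 left out, as Egr3 in males was -0.21. Junb and Jund in females ranged from -0.090 to 0.41 and -0.26 to 0.33, and Jund was -0.0048 with second entries added. For the difference Atf3 ranged from -0.28 to 0.93, Jun from -0.28 to 0.091 and Jund from -0.52 to 0.073. The causes were not tested. Reads per library were 1 to 65 for Fosb, 5 to 25.5 for Egr2 and 5 to 215 for Egr3, which limits their precision.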
